A study of Xenopus laevis with 40 samples.

Results

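The Cep genes encode proteins of the centrosome, the organelle that holds a pair of centrioles and anchors microtubules. They were taken by name. A gene ID was a member when a part of its symbol in the deposited symbol table began with cep and a digit, and when it had at least 10 counts in at least 2 of the 40 libraries. Of 51017 gene IDs, 40 carried such a symbol and 38 met the count rule. cep128-like.S and cep112.S did not meet it. The 38 members are 28 L copies and 10 S copies of 29 genes, 9 of which had both copies. L and S name the sister copies of a gene that the tetraploid frog Xenopus laevis keeps in its long and short subgenomes. All 38 members passed the filter on low counts and were tested among 31648 genes.

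A centriole is built beside an older one in each cell cycle, and a centriole that has matured can dock at the cell surface through its distal appendages and grow a cilium. Multiciliated cells of the frog epidermis no longer divide, yet they make a large number of centrioles at once, many of them on deuterosomes, and each becomes the basal body of a motile cilium. Notch signalling limits how many cells take this fate, and the coregulator multicilin (mcidas) switches on its centriole and cilium genes. The roles given to Cep proteins here are known mostly from human and mouse cells.

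RNA was measured by bulk sequencing of poly-A RNA from animal caps, explants of prospective ectoderm that form a mucociliary epidermis in culture. Explants were taken at stage 8 from embryos of the wt genotype and collected at st10.5 (early gastrula), then at st16, st25 and st32, by the staging of Nieuwkoop and Faber. Embryos of the first group received mRNA for suh-dbm, described in the labels as a loss of Notch, and for dnmcidas, a dominant-negative multicilin, at 100 ng/ul each. Embryos of the second group received nicd mRNA, the intracellular domain that acts as a gain of Notch, at 120 ng/ul. The third group received suh-dbm mRNA alone at 100 ng/ul, and the fourth received 3 pmol of a morpholino against the start codon of foxa1 (foxa1 MO), a knockdown of a transcription factor. The control embryos were not injected, and the labels name no control mRNA or control morpholino. Injected embryos received 4 injections into the animal hemisphere at the four-cell stage. Each of the 20 groups of treatment and stage had 2 libraries, from experiments 1 and 2, which used different females and fertilizations.

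Total counts per library were 20177357 to 99359750. Levels are given as CPM, the counts of a gene scaled to the same total in every library (counts-per-million). The injected RNAs were visible at st10.5. rbpj.S, the Su(H) gene, was at 42500 and 26700 CPM with suh-dbm + dnmcidas and at 37700 and 41100 CPM with suh-dbm, against 16.2 and 11.1 CPM in uninjected explants. mcidas.S was at 4540 and 4200 CPM with suh-dbm + dnmcidas, against 0.701 and 3.69 CPM in uninjected explants, and notch1.S was at 18800 and 9960 CPM with nicd, against 135 and 142 CPM. A morpholino blocks translation, so foxa1 counts do not check the foxa1 MO label. A further signal goes beyond the labels: cetn4.L, a centrin gene, was at 13900 to 19900 CPM in the 4 injected libraries of experiment 1 at st10.5, against 24.8 CPM in its uninjected library. In experiment 2 the 4 injected libraries had 20.1 to 23.1 CPM and the uninjected library 24.9 CPM. The excess lasted to st32, where the injected libraries of experiment 1 had 1300 to 1740 CPM, against 19.2 CPM, and it made up at most 1.99% of a library's counts. The labels name no injected cetn4, and the values of the Cep genes are therefore also given by experiment.

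At st16 the Cep genes as a group were lower in explants with suh-dbm + dnmcidas and in explants with nicd than in uninjected explants. With suh-dbm + dnmcidas, 20 of 38 members fell against uninjected explants and 0 rose (edgeR quasi-likelihood test, Benjamini-Hochberg adjusted p under 0.05), where 4.12% of all genes tested were called in either direction and 3.72% fell. With nicd, 20 members fell and 0 rose, where 9.93% of all genes were called and 7.22% fell. The median log2 fold change of the 38 members was -1.25 with suh-dbm + dnmcidas, against -0.02 for all genes tested, and -1.16 with nicd, against 0.01 for all genes. The member median was -1.31 in experiment 1 and -1.19 in experiment 2 with suh-dbm + dnmcidas, and -1.07 and -1.23 with nicd. Of all 38 members, 26 had both injected libraries below both uninjected libraries in each treatment, where 19.4% of all genes tested showed this arrangement with suh-dbm + dnmcidas and 23.2% with nicd. Without experiment 1 of the suh-dbm + dnmcidas group the count there was 13, and 12 of the 20 calls were kept in all 4 fits that left out a library. With nicd 13 of 20 were kept.

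The motile cilium genes, a list of 24 copies of axonemal and ciliary genes that mark multiciliated cells, moved alongside. With suh-dbm + dnmcidas 23 of 24 fell at each of st16, st25 and st32. With nicd 22 fell at st16 and 23 at st25 and st32. Their summed level at st16 was 47.9 to 58 CPM with suh-dbm + dnmcidas and 78.5 to 130 CPM with nicd, against 1160 to 1530 CPM in uninjected explants. At st32 it was 52.9 to 106 CPM with suh-dbm + dnmcidas and 29 to 32.6 CPM with nicd, against 1300 to 1310 CPM. In bulk explants fewer multiciliated cells and less RNA in each of them cannot be told apart. The part of cell number in the Cep values was not tested.

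**Figure D1:**
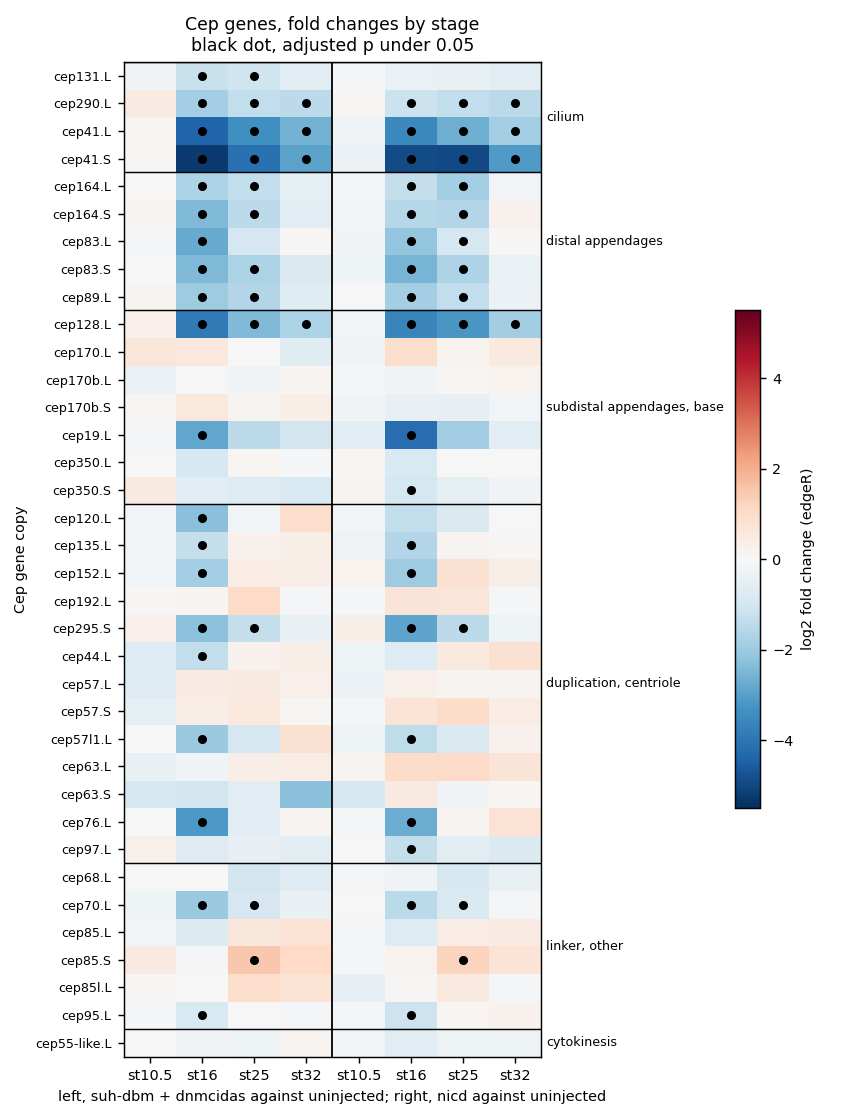
Log2 fold changes of 36 of the 38 Cep gene copies (rows, ordered by role) against uninjected explants at st10.5, st16, st25 and st32, for suh-dbm + dnmcidas on the left and nicd on the right. Black dots mark an adjusted p under 0.05. st10.5 holds 0 dots, st16 holds 20 with suh-dbm + dnmcidas and 19 with nicd, and 4 members are marked at st32 in each treatment.

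The number of called members was smaller at later stages. At st25, 11 members fell and 1 rose with suh-dbm + dnmcidas, where 5.59% of all genes were called and 4.26% fell. With nicd, 12 fell and 1 rose, where 12.3% of all genes were called and 7.1% fell. At st32, 4 members fell and 0 rose with suh-dbm + dnmcidas, where 2.74% of all genes were called and 2.3% fell. With nicd 4 fell and 0 rose, where 5.83% were called and 4.05% fell. The member medians were -0.50 at st25 and -0.17 at st32 with suh-dbm + dnmcidas, and -0.50 and -0.06 with nicd. At st25 the suh-dbm + dnmcidas count was 6 without uninjected experiment 2, and the nicd count was 8 without nicd experiment 1. At st32 the suh-dbm + dnmcidas count was 2 without the suh-dbm + dnmcidas library of experiment 2.

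Among members that act in the cilium itself, the copies of cep41 had the lowest fold changes with suh-dbm + dnmcidas at st16. cep41 acts in the glutamylation of ciliary tubulin and is a Joubert syndrome gene in humans. cep41.L (gene12608) was at 2.19 and 1.86 CPM with suh-dbm + dnmcidas and at 2.54 and 4.58 CPM with nicd at st16, against 35.3 and 44.4 CPM in uninjected explants. The injected libraries of both treatments lay far below the uninjected ones, with no overlap. Its log2 fold change was -4.40 ± 0.39 (SE, edgeR adjusted p = 1.07e-07) with suh-dbm + dnmcidas and -3.54 ± 0.37 (edgeR adjusted p = 1.91e-06) with nicd. cep41.S (gene17642) was at 2.35 and 2.68 CPM with suh-dbm + dnmcidas and at 2.18 and 3.84 CPM with nicd, against 83.2 and 92.9 CPM in uninjected explants. That is a log2 fold change of -5.25 ± 0.49 with suh-dbm + dnmcidas and -4.94 ± 0.49 with nicd (edgeR adjusted p = 1.90e-07 and 1.62e-06).

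cep41 stayed low through st32. cep41.L was then at 1.83 and 2.57 CPM with suh-dbm + dnmcidas and at 2.93 and 3.67 CPM with nicd, against 8.87 and 15.1 CPM in uninjected explants. cep41.S was at 1.80 and 1.75 CPM with suh-dbm + dnmcidas and at 1.13 and 1.76 CPM with nicd, against 8.69 and 16.1 CPM. The groups did not overlap for either copy, and the uninjected levels were themselves lower than at st16. The log2 fold changes at st32 were -2.58 ± 0.36 and -2.94 ± 0.46 with suh-dbm + dnmcidas for cep41.L and cep41.S. With nicd they were -1.86 ± 0.35 for cep41.L and -3.11 ± 0.46 for cep41.S. Both copies of cep41 were called at st16, st25 and st32 in both treatments, and in every fit that left out a library of the groups compared.

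cep290, which builds the transition zone at the base of the cilium, followed with smaller differences. cep290.L was at 6.12 and 11 CPM with suh-dbm + dnmcidas and at 12 and 14.2 CPM with nicd at st16, against 25.4 and 31.7 CPM in uninjected explants. Its log2 fold change was -1.87 ± 0.34 with suh-dbm + dnmcidas and -1.17 ± 0.34 with nicd (edgeR adjusted p = 0.000667 and 0.0259). At st32 cep290.L was at 6.08 and 7.05 CPM with suh-dbm + dnmcidas and at 6.35 and 5 CPM with nicd, against 14 and 17.8 CPM in uninjected explants. These are falls of about the same size as at st16, at -1.42 ± 0.34 with suh-dbm + dnmcidas and -1.49 ± 0.34 with nicd. The nicd call at st16 was lost without any 1 of its 4 libraries, and the st32 calls were kept in 1 of 4 such fits with suh-dbm + dnmcidas and in 2 of 4 with nicd.

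cep131 acts at centriolar satellites, the granules around the centrosome, and in transport to the cilium. cep131.L was at 17.8 and 25.1 CPM with suh-dbm + dnmcidas at st16, against 40.1 and 51.5 CPM in uninjected explants, and fell by 1.22 on the log2 scale (SE 0.26, edgeR adjusted p = 0.00336). It was at 45.2 and 27.9 CPM with nicd, so that the nicd libraries overlapped the uninjected ones and no change was called. cep131.L was also the 1 member called between the treatments at st16, higher with nicd than with suh-dbm + dnmcidas by 0.87 ± 0.26 (edgeR adjusted p = 0.0381). In that comparison 7.47% of all genes were called and 4% were higher with nicd. The difference was 1.41 in experiment 1 and 0.24 in experiment 2. The number of called members there was 0 without the suh-dbm + dnmcidas library of either experiment, 2 without nicd experiment 1, 2 with the experiment as a block (cep63.L was added) and 4 by DESeq2.

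All 5 copies of the 3 distal appendage genes fell at st16 in both treatments. Distal appendages anchor the mother centriole to the membrane: cep83 sits at their base, cep89 and cep164 depend on it, and cep164 recruits the kinase that starts cilium growth. cep164.L was at 8.57 and 10.8 CPM with suh-dbm + dnmcidas and at 11.1 and 12.6 CPM with nicd, against 23.9 and 34.1 CPM in uninjected explants. cep164.S was at 3.04 and 5.55 CPM with suh-dbm + dnmcidas and at 5.25 and 9.58 CPM with nicd, against 16 and 26.7 CPM. For both copies the injected libraries lay below the uninjected ones in each treatment. The log2 fold changes of cep164.L were -1.70 ± 0.33 with suh-dbm + dnmcidas and -1.33 ± 0.33 with nicd. Those of cep164.S were -2.44 ± 0.32 and -1.57 ± 0.30.

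cep83.L was at 5.45 and 9.67 CPM with suh-dbm + dnmcidas and at 6.81 and 15.1 CPM with nicd at st16, against 42 and 52.4 CPM in uninjected explants. The log2 fold change was -2.78 ± 0.33 with suh-dbm + dnmcidas and -2.17 ± 0.32 with nicd. cep83.S and cep89.L changed by -2.44 ± 0.34 and -1.97 ± 0.32 with suh-dbm + dnmcidas, and by -2.57 ± 0.34 and -1.88 ± 0.32 with nicd. At st25, 4 of the 5 distal appendage copies fell with suh-dbm + dnmcidas, and 5 of 5 with nicd. cep83.L was the exception with suh-dbm + dnmcidas, at 12.8 and 11.6 CPM against 16.3 and 22.6 CPM in uninjected explants. At st32 no distal appendage copy was called in either treatment.

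The fitted st32 differences of these copies were smaller than those at st16 and did not pass the test. cep164.L was at 9.30 and 10.1 CPM with suh-dbm + dnmcidas and at 12.9 and 9.64 CPM with nicd, against 11.4 and 13.9 CPM in uninjected explants. cep83.S was at 7.30 and 6.42 CPM with suh-dbm + dnmcidas and at 9.95 and 6.89 CPM with nicd, against 10.9 and 10.6 CPM. cep83.L was at 7.73 and 8.09 CPM with suh-dbm + dnmcidas and at 8.11 and 5.94 CPM with nicd, against 5.92 and 7.61 CPM. With suh-dbm + dnmcidas the libraries lay below the uninjected ones for cep164.L and cep83.S and above them for cep83.L. With nicd they lay below for cep83.S and overlapped for cep164.L and cep83.L. The share of all genes with such an arrangement at st32 is not given here, so no change is read from it. The median log2 fold change of the 5 copies at st32 was -0.57 with suh-dbm + dnmcidas, with a range of -0.80 to 0.08, and -0.17 with nicd, with a range of -0.37 to 0.22.

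Of the 7 members of the subdistal appendages and the base of the mother centriole, cep128.L changed at each of st16, st25 and st32. cep128 is needed for subdistal appendages, which anchor microtubules. At st16 it was at 3.12 and 4.27 CPM with suh-dbm + dnmcidas and at 3.28 and 5.03 CPM with nicd, against 43.1 and 57.3 CPM in uninjected explants. Its log2 fold change was -3.89 ± 0.40 with suh-dbm + dnmcidas and -3.65 ± 0.39 with nicd (edgeR adjusted p = 4.49e-07 and 1.92e-06). At st25 it was at 12.9 and 7.03 CPM with suh-dbm + dnmcidas and at 4.66 and 4.98 CPM with nicd, against 43.9 and 46.4 CPM. At st32 the levels were 6.72 and 7.05 CPM with suh-dbm + dnmcidas and 5.81 and 5.11 CPM with nicd, against 18.7 and 22.2 CPM in uninjected explants. The injected libraries were below the uninjected ones at all 3 stages. The log2 fold changes were -2.44 ± 0.37 and -1.72 ± 0.36 at st25 and st32 with suh-dbm + dnmcidas, and -3.22 ± 0.38 and -1.91 ± 0.37 with nicd. At st32 the cep128.L call with suh-dbm + dnmcidas was not kept in all 4 fits that left out a library, while that with nicd was.

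cep19 and cep350 act together at the base of the mother centriole, where they bring in proteins for ciliary transport. cep19.L was at 1.68 and 0.732 CPM with suh-dbm + dnmcidas and at 0.504 and 0.446 CPM with nicd at st16, against 8.95 and 7.60 CPM in uninjected explants. Its log2 fold change was -2.87 ± 0.67 with suh-dbm + dnmcidas and -4.17 ± 0.72 with nicd. cep350.S fell with nicd at st16 by 0.95 (SE 0.31, edgeR adjusted p = 0.0492), a call lost without any 1 of its 4 libraries. cep350.L was at 59.7 and 65.5 CPM with suh-dbm + dnmcidas and at 70.7 and 53.5 CPM with nicd at st16, against 95.2 and 120 CPM in uninjected explants. Those libraries did not overlap, yet the difference did not pass the test. cep170.L and both copies of cep170b, whose products bind microtubules at the subdistal appendages, were called in none of the 24 treatment comparisons. cep170b.L was at 120 and 133 CPM with suh-dbm + dnmcidas and at 118 and 86.9 CPM with nicd at st16, against 132 and 95.9 CPM, and the groups overlapped.

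Of the 13 members of centriole duplication and centriole structure, 7 fell with suh-dbm + dnmcidas and 6 with nicd at st16. At st25 cep295.S was the 1 member of these 13 that was called in either treatment, and at st32 there was none. cep152, the scaffold that recruits the duplication kinase PLK4, was at 14.7 and 13.1 CPM with suh-dbm + dnmcidas and at 12.5 and 13.1 CPM with nicd at st16, against 45.8 and 49 CPM in uninjected explants (cep152.L). The injected libraries were alike and clear of the uninjected ones. Its log2 fold change was -1.89 ± 0.42 with suh-dbm + dnmcidas and -1.94 ± 0.42 with nicd (edgeR adjusted p = 0.00488 and 0.00249). By st25 cep152.L was at 14.4 and 6.65 CPM with suh-dbm + dnmcidas and at 13.7 and 9.66 CPM with nicd, against 6.34 and 6.94 CPM in uninjected explants, and no change was called.

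cep76, which restrains repeated duplication in human cells, had the lowest fold change among these 13 with suh-dbm + dnmcidas. cep76.L was at 6.02 and 7.07 CPM with suh-dbm + dnmcidas and at 9.44 and 7.35 CPM with nicd, against 57.7 and 49 CPM in uninjected explants. The log2 fold changes were -3.17 ± 0.51 with suh-dbm + dnmcidas and -2.72 ± 0.50 with nicd. cep295, which turns a new centriole into one that can duplicate, was at 12.5 and 13.1 CPM with suh-dbm + dnmcidas and at 7.24 and 8.21 CPM with nicd, against 51.5 and 59.7 CPM (cep295.S). It changed by -2.24 ± 0.30 with suh-dbm + dnmcidas and by -2.90 ± 0.31 with nicd, with no overlap between groups.

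cep120, needed for centriole elongation, was at 8.08 and 16.6 CPM with suh-dbm + dnmcidas and at 20.1 and 24.8 CPM with nicd, against 47.7 and 62.6 CPM in uninjected explants (cep120.L). The change of -2.30 ± 0.47 with suh-dbm + dnmcidas passed the test (edgeR adjusted p = 0.00217), though not without experiment 1 of that group. The difference with nicd did not pass. cep135, a protein of the centriole wall near the cartwheel, was at 44.6 and 37.8 CPM with suh-dbm + dnmcidas and at 34.2 and 28.4 CPM with nicd, against 99.6 and 84.4 CPM (cep135.L). The log2 fold changes were -1.29 ± 0.36 with suh-dbm + dnmcidas and -1.61 ± 0.36 with nicd, and the first was lost without any 1 of its 4 libraries. cep57l1.L, a gene related to the pericentriolar cep57, changed by -2.03 ± 0.30 with suh-dbm + dnmcidas and by -1.40 ± 0.29 with nicd. cep44.L, whose human protein helps centrioles mature, fell with suh-dbm + dnmcidas by 1.37 (SE 0.36), and cep97.L, which helps cap the centriole tip, fell with nicd by 1.31 (SE 0.34). These last calls were each lost without any 1 of the 4 libraries.

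**Figure D2:**
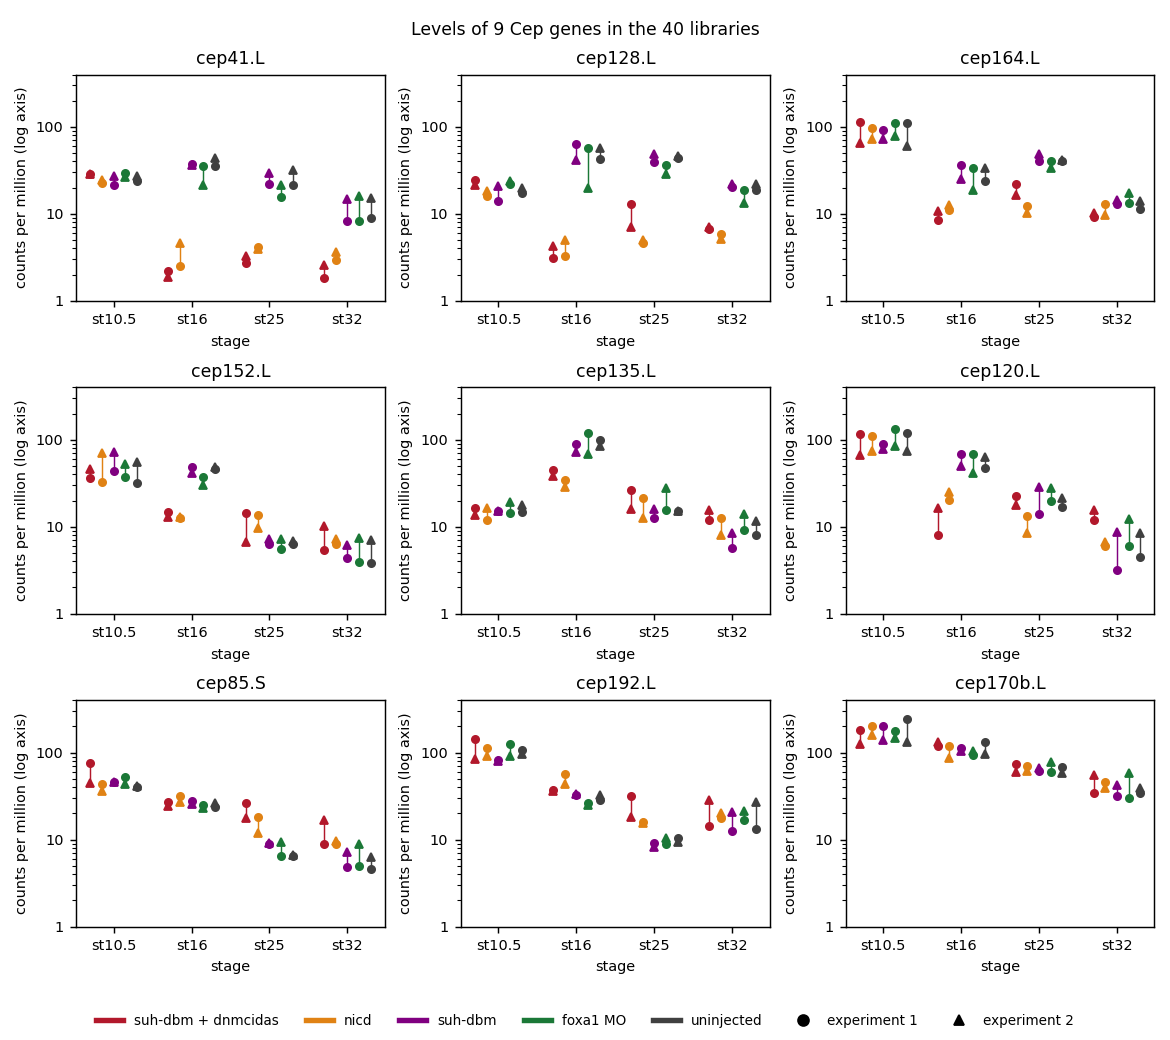
CPM (log axis) of 9 Cep genes in all 40 libraries, by stage and treatment. Circles are experiment 1, triangles experiment 2, and each line joins the libraries of a group. At st16, st25 and st32 the suh-dbm + dnmcidas and nicd points of cep41.L and cep128.L lie below all uninjected points of the same stage. Those of cep85.S and cep192.L lie above the uninjected points at st25, where cep192.L was not called against uninjected explants. cep170b.L overlaps at st16.

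Other duplication members were not called lower. cep192, which recruits PLK4 and builds the pericentriolar matrix, was at 36.9 and 36.2 CPM with suh-dbm + dnmcidas and at 57.5 and 44.1 CPM with nicd at st16, against 28.4 and 32.5 CPM in uninjected explants (cep192.L). At st25 it was at 31.9 and 18 CPM with suh-dbm + dnmcidas and at 16.1 and 15.4 CPM with nicd, against a mean of 9.97 ± 0.743 CPM (SD, n = 2) in uninjected explants. The injected libraries were the higher ones at both stages, but none of these differences passed the test. The share of all genes with such an arrangement is not given here, so no change is read from it. Against suh-dbm alone, at 9.08 and 8.24 CPM, the st25 level with suh-dbm + dnmcidas was higher by 1.25 ± 0.32 (edgeR adjusted p = 0.0184).

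cep63, the partner of cep152 and the relative of the deuterosome gene deup1, was at 4.09 and 8.05 CPM with suh-dbm + dnmcidas and at 8.21 and 18.6 CPM with nicd at st16, against 4.87 and 8.11 CPM in uninjected explants (cep63.L). cep63.S had at most 12 counts in a library. Neither copy of cep63 and neither copy of cep57 was called in a treatment comparison in the edgeR fit without a block. With the experiment as a block, cep63.L was called between nicd and suh-dbm + dnmcidas at st16. deup1, which is not a member, was at 0.648 and 0.183 CPM with suh-dbm + dnmcidas and at 0.458 and 1.25 CPM with nicd at st16, against 81 and 93 CPM in uninjected explants. Its log2 fold changes were -7.73 ± 1.12 and -6.75 ± 1.07, both called by edgeR.

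Among the 6 linker and other members, cep70.L fell and cep85.S rose. cep70, which helps organise microtubules at the centrosome, was at 4.27 and 6.40 CPM with suh-dbm + dnmcidas and at 6.05 and 8.90 CPM with nicd at st16, against 16.8 and 23.5 CPM in uninjected explants. It changed by -2.04 ± 0.26 with suh-dbm + dnmcidas and by -1.48 ± 0.25 with nicd. At st25 it changed by -0.93 ± 0.25 and -0.82 ± 0.25, calls that were lost in each fit without a library. cep95.L changed at st16 by -0.84 ± 0.23 with suh-dbm + dnmcidas and by -1.16 ± 0.23 with nicd, and was called in both.

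A copy of cep85, a brake on the linker kinase NEK2 in human cells, was the 1 member called higher against uninjected explants. cep85.S was at 26.2 and 17.5 CPM with suh-dbm + dnmcidas and at 18.2 and 11.9 CPM with nicd at st25, against 6.51 and 6.62 CPM in uninjected explants. The log2 fold change was 1.48 ± 0.32 with suh-dbm + dnmcidas and 1.21 ± 0.31 with nicd (edgeR adjusted p = 0.00354 and 0.0110). The calls were kept in 2 of 4 fits without a library with suh-dbm + dnmcidas and in 1 of 4 with nicd. Both were lost when L and S counts were summed. cep85.L was at 39.1 and 23.4 CPM with suh-dbm + dnmcidas and at 26.6 and 18.2 CPM with nicd at st25. Its uninjected levels were 17.5 and 16.3 CPM, and it was called in none of the 24 treatment comparisons. Against suh-dbm alone, at 8.87 and 9.23 CPM, the st25 level of cep85.S with suh-dbm + dnmcidas was not called higher. In nicd explants at st25, 15 of 29 copies of DNA replication and mitosis genes rose and 0 fell (share of all genes called given above). Their summed level was 1660 to 2090 CPM, against 823 to 886 CPM in uninjected explants. With suh-dbm + dnmcidas the sum was 1080 to 1260 CPM, and 0 copies rose and 1 fell (2 with the experiment as a block). The part of proliferation in the cep85.S values was not tested. cep55-like.L, related to a protein of cell abscission, was at 34.3 and 35 CPM with suh-dbm + dnmcidas and at 25.5 and 30.6 CPM with nicd at st25, against 34.2 and 34 CPM, and was called in none of the treatment comparisons.

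Setting suh-dbm + dnmcidas against suh-dbm alone asks what the dominant-negative multicilin adds. At st16, 18 members fell and 0 rose, where 3.24% of all genes were called and 3.02% fell. At st25, 13 fell and 1 rose, where 6% were called and 3.91% fell, and at st32, 5 fell and 0 rose, where 2.92% were called and 2.32% fell. cep128.L was at 3.12 and 4.27 CPM with suh-dbm + dnmcidas at st16, against 63.8 and 41.2 CPM with suh-dbm, and changed by -3.92 ± 0.40. cep68, a protein of the centrosome linker, was at 22.9 and 13.5 CPM with suh-dbm + dnmcidas at st25, against 42.8 and 30.9 CPM with suh-dbm (cep68.L), and changed by -1.30 ± 0.32. At st25 the count was 9 without experiment 2 of suh-dbm + dnmcidas. At st32 it was 3 without experiment 1 and 2 without experiment 2 of that group.

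With suh-dbm alone or foxa1 MO, 0 members were called against uninjected explants at any stage by edgeR, with or without the experiment as a block, or by DESeq2. Of all genes, 0.00316%, 0.00316%, 0% and 0% were called with suh-dbm at st10.5, st16, st25 and st32, and 0.0158%, 0.0442%, 0.0284% and 0.0126% with foxa1 MO. At an unadjusted p under 0.05 the count was 0 in each of them other than foxa1 MO at st16, where it was 1. That member was cep19.L, at 5.12 and 1.09 CPM with foxa1 MO, against 8.95 and 7.60 CPM in uninjected explants. Experiments 1 and 2 differed for some members with foxa1 MO at st16. cep128.L was at 57.6 and 19.9 CPM, against 43.1 and 57.3 CPM in uninjected explants. cep41.S was at 92 and 38.8 CPM, against 83.2 and 92.9 CPM. The summed motile cilium level was 1520 and 635 CPM, against 1160 and 1530 CPM. With 2 libraries a group, a change can go undetected. The 6 comparisons made at st10.5, which are the 4 treatments against uninjected explants, suh-dbm + dnmcidas against suh-dbm and nicd against suh-dbm + dnmcidas, also had 0 called members by edgeR and by DESeq2, and 0 at an unadjusted p under 0.05. Beyond the shares given above for suh-dbm and foxa1 MO, the share of all genes called there was 0.0126% for suh-dbm + dnmcidas and 0.0537% for nicd against uninjected explants. It was 0.00632% for suh-dbm + dnmcidas against suh-dbm and 0.0885% for nicd against suh-dbm + dnmcidas. Between nicd and suh-dbm + dnmcidas 0 members were called at st25 and st32 by edgeR and by DESeq2, with 2 and 3 at an unadjusted p under 0.05, where 8.55% and 3% of all genes were called. With the experiment as a block, 1 member was called at st25.

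Some of the duplication members that fell at st16 peaked at that stage in uninjected explants, and others did not. cep135.L was at 14.7 and 18 CPM at st10.5, 99.6 and 84.4 CPM at st16, 15.1 and 15.2 CPM at st25 and 8.13 and 11.5 CPM at st32. cep76.L was at 32.4 and 14.6, 57.7 and 49, 9.17 and 10.4, and 3.66 and 5.33 CPM at the same stages. The st16 libraries stood above those of the other 3 stages for both genes. That was not so for cep120.L, at 121 and 74.3 CPM at st10.5 and 47.7 and 62.6 CPM at st16. Nor was it so for cep152.L, at 32.1 and 55.6 CPM at st10.5 and 45.8 and 49 CPM at st16. cep135.L rose by 2.89 ± 0.38 at st16 against st10.5, and changed by -2.70 ± 0.38 at st25 against st16.

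Across the uninjected stages, 14 members rose and 5 fell at st16 against st10.5, where 44.8% of all genes were called and 22.2% rose, so the share of members called in either direction is near that of all genes. At st25 against st16, 2 rose and 15 fell, where 21.9% of all genes were called and 11.4% fell. Of the 15, 8 were duplication members, with cep152.L (-2.93 ± 0.43) and cep44.L (-2.66 ± 0.38) among them. cep192.L was at 108 and 95.7 CPM at st10.5, 28.4 and 32.5 CPM at st16, a mean of 9.97 ± 0.743 CPM (SD, n = 2) at st25 and 13.3 and 27.4 CPM at st32, without a peak at st16. Gene lists of the same explants had their own courses. Of 16 copies of deuterosome and multiciliated cell regulators tested, with cetn4.L included, 10 rose and 4 fell at st16 against st10.5. At st25 against st16, 0 rose and 7 fell. Their summed level without cetn4 was 171 to 222 CPM at st10.5, 604 to 637 CPM at st16, 209 to 231 CPM at st25 and 156 to 206 CPM at st32. Of 29 copies of replication and mitosis genes, 3 rose and 17 fell at st16 against st10.5, and 0 rose and 24 fell at st25 against st16. Their summed level was 6360 to 6620, 2440 to 2650, 823 to 886 and 648 to 716 CPM at the same stages. Of 24 motile cilium copies, 22 rose and 1 fell at st16 against st10.5, and 1 rose and 0 fell at st25 against st16. The part of proliferation or of multiciliated cells in the Cep stage course was not tested.

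At st32 against st25, 0 members rose and 8 fell, where 1.44% of all genes were called and 0.875% fell. All 5 distal appendage copies were among them, such as cep164.L, which was at 11.4 and 13.9 CPM at st32, against 40.6 and 41.2 CPM at st25 (-1.77 ± 0.33, edgeR adjusted p = 0.00786). cep41.S, cep57l1.L and cep70.L were the others. The count was 1 without st25 experiment 1, 0 without st32 experiment 1, 3 without the experiment 2 library of either stage and 13 by DESeq2, and 0 of the 8 calls were kept in all 4 fits that left out a library.

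**Figure D3:**
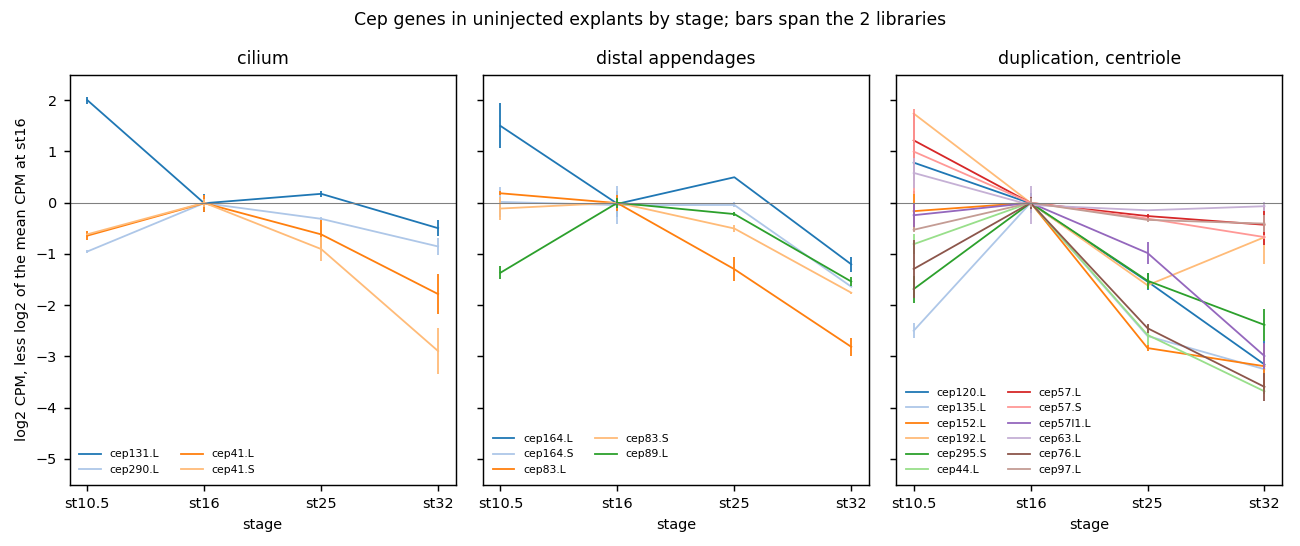
Levels of Cep genes in uninjected explants by stage, on the log2 scale relative to the mean CPM of the same gene at st16, for the cilium, distal appendage and duplication members drawn in the map of fold changes (cep63.S left out). Lines join the means of both experiments and bars span the 2 libraries. Of the duplication members 8 fell at st25 against st16, and all 5 distal appendage copies fell at st32 against st25.

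The treatment effects at st16 and st32 were compared directly. With suh-dbm + dnmcidas the difference from uninjected explants was less negative or more positive at st32 for 5 members, where 0.243% of all genes differed and 0.212% did so in that direction. With nicd it was so for 8 members, where 1.26% of all genes differed and 0.714% in that direction, and 0 members differed the other way in either treatment. Among the called members cep76.L had the largest shift in both, at 3.33 ± 0.69 on the log2 scale with suh-dbm + dnmcidas and 3.50 ± 0.69 with nicd (edgeR adjusted p = 0.0410 and 0.00915). cep83.L shifted by 2.86 ± 0.45 with suh-dbm + dnmcidas and by 2.22 ± 0.45 with nicd. cep41, cep128 and cep290 were not among the members whose effect differed. The count for suh-dbm + dnmcidas was 0 to 2 with a library left out, and the count for nicd was 1 to 9, while DESeq2 gave 11 and 14. cep295.S with nicd, at 2.62 ± 0.42, was the 1 shift called in all 8 such fits.

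The balance between the L and S copies was followed in genes that had both. The share of the L copy in the counts of cep41 was 84% and 63.9% with nicd at st25, against 34.6% and 36.4% in uninjected explants. It was 53.9% and 54.4% with nicd at st16, against 29.8% and 32.3%. The nicd shares lay above the uninjected ones at both stages, and so did the shares with suh-dbm + dnmcidas. They rest on few S counts. The nicd libraries of st16 had 224 counts of cep41.S together, and those of st25 had 27 in experiment 1 and 88 in experiment 2. For cep170b the L share in uninjected explants was 89% and 85.8% at st10.5, 77.9% and 74.1% at st16, 56.9% and 56.6% at st25 and 53.8% and 49.9% at st32. The difference between copies was not tested, copies are not scaled by length, and reads that match both copies could be split between them.

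**Figure D4:**
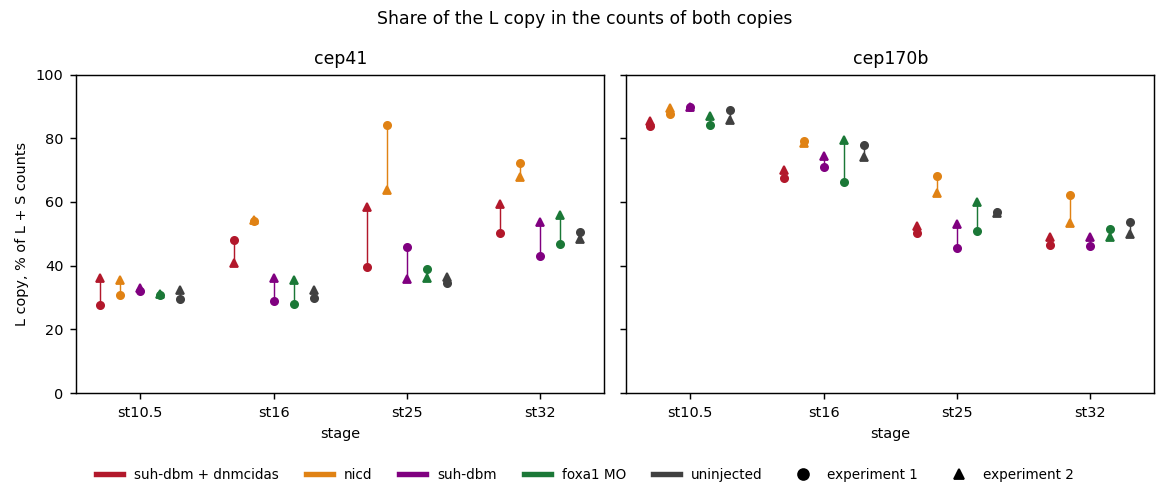
Share of the L copy in the summed L and S counts of cep41 and cep170b in all 40 libraries, by stage and treatment. Circles are experiment 1 and triangles experiment 2. The nicd points of cep41 lie above the uninjected points at st16, st25 and st32, and the cep170b share is lower at st32 than at st10.5 in every treatment.

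Genes that work with the Cep proteins were followed by list. Of 15 copies of other centriole duplication genes tested, 13 fell and 0 rose at st16 in each treatment. Their summed level was 178 to 214 CPM with suh-dbm + dnmcidas and 245 to 263 CPM with nicd, against 645 to 662 CPM in uninjected explants. plk4.S, a copy of the kinase that starts duplication, was at 1.44 and 2.87 CPM with suh-dbm + dnmcidas and at 2.87 and 4.02 CPM with nicd, against 44.6 and 51 CPM. It changed by -4.62 ± 0.57 with suh-dbm + dnmcidas and by -3.85 ± 0.55 with nicd. plk4.L changed by -1.50 ± 0.36 and -1.24 ± 0.36. stil.L, whose product binds PLK4, changed by -2.16 ± 0.34 with suh-dbm + dnmcidas and by -1.57 ± 0.33 with nicd. At st25, 2 of these 15 copies fell with suh-dbm + dnmcidas and 3 with nicd, and 0 rose.

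Of 29 copies of pericentriolar matrix and satellite genes, 17 fell and 1 rose with suh-dbm + dnmcidas at st16, and 13 fell and 0 rose with nicd (14 and 1 with the experiment as a block). Of 16 copies of deuterosome and multiciliated cell regulators tested, 7 fell with suh-dbm + dnmcidas and 10 with nicd, and 0 rose. These 16 include cetn4.L, which at st16 was at 7900 to 12900 CPM in the injected libraries of experiment 1, against 279 CPM. With the experiment as a block, 8 fell and 0 rose with suh-dbm + dnmcidas, and 9 fell and 1 rose with nicd. Their summed level without cetn4 was 77 to 79.4 CPM with suh-dbm + dnmcidas and 89.4 to 113 CPM with nicd, against 604 to 637 CPM in uninjected explants. cdc20b.L, a gene of deuterosome release, was at 0.0810 and 0.122 CPM with suh-dbm + dnmcidas and at 0.160 and 0.536 CPM with nicd, against 28 and 25.1 CPM. ccno.S, a cyclin gene needed for this centriole production, was at 0.830 and 0.518 CPM with suh-dbm + dnmcidas and at 0.138 and 1.67 CPM with nicd, against 106 and 108 CPM. foxj1.S, the transcription factor of motile cilia, was at 2.82 and 1.16 CPM with suh-dbm + dnmcidas and at 5.27 and 3.99 CPM with nicd, against 156 and 127 CPM.

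Genes of ionocytes, another cell type of this epidermis, were lower with nicd than with suh-dbm + dnmcidas. Of 15 ionocyte gene copies, 10 were called lower and 0 higher with nicd in that comparison at st16 (10 and 1 with the experiment as a block). Against uninjected explants, 0 were called with suh-dbm + dnmcidas at st16, while 9 fell with nicd. The summed ionocyte level was 2730 to 3440 CPM with suh-dbm + dnmcidas and 120 to 218 CPM with nicd, against 762 to 1190 CPM in uninjected explants. Across the other lists at st16, 0 of 9 basal cell gene copies were called with suh-dbm + dnmcidas and 1 rose with nicd (2 with the experiment as a block). Of 10 goblet cell gene copies, 0 were called with suh-dbm + dnmcidas (1 fell with the block) and 3 fell with nicd. Of 4 small secretory cell gene copies, 0 were called in either treatment. Of 10 neural gene copies, 0 were called with suh-dbm + dnmcidas, and 1 rose and 1 fell with nicd. The part of these cell types in the Cep values was not tested.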

How the data were processed

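RNA was sequenced from 40 libraries of Xenopus laevis animal caps, 2 for each of 20 groups. The authors deposited whole-number counts per gene, 1 file per library, without normalization. Reads were processed with FastQC 0.11.5, STAR 2.6.0b-1, featureCounts 1.6.3 and DESeq2 1.22.1, per the submitters' processing notes, and the libraries were unstranded and poly-A selected, per the labels' protocols. The genome build, the annotation and the handling of reads that match both copies are not given in the sources used here. Symbols came from the authors' deposited symbol table, which named 48349 of 51017 IDs.

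Counts were tested with edgeR 4.0.16 (R 4.3.3): TMM factors, filterByExpr over the 20 groups, and quasi-likelihood tests in 1 fit of all 40 libraries with 20 residual degrees of freedom, no block, and p-values adjusted over 31648 genes by the Benjamini-Hochberg method at 0.05. A fold change is the fitted log2 value with its standard error. CPM divides a count by the total of its library and not by gene length, so levels are compared between groups and not between genes. The procedure was tested on simulated counts. Replicate libraries differed beyond sampling noise (chi-square per degree of freedom 53.2 to 145), so each was counted as its own sample. Experiment numbers pair the libraries, since the labels say that each number is a female and fertilization. Deviations of same-numbered libraries correlated at 0.19 to 0.65 (median 0.42), above 0.1 in 27 of 27 pairs of groups. The experiment as a block was therefore an alternative, as were RLE size factors, no filter, DESeq2 1.42.0, summed L and S copies, leaving out each library and, added after seeing the data, the dataset number in the file headers. Leave-one-out fits kept the dispersion trend of all libraries, and a lone library was assumed to vary like the other groups. With 2 libraries a group, intervals and p-values rest on the spread pooled over all groups.

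Genes were named by a rule. Any called member could be named. Every copy of cep55, cep63, cep70, cep152, cep164, cep192 and cep290 and the 3 members of highest mean CPM were named whether called or not, and values of all libraries were given for up to 10 called members per treatment and stage. cetn4.L was named after its values were seen. Some members count in the totals and are not reported here by name. The members and gene lists were chosen with earlier results of these data known, and roles were assigned by hand from general knowledge. The authors' deposited tables of fold changes were not used.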

Additional observations from a re-analysis of the deposited data

Results flagged for a closer look

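The effect of a treatment against uninjected explants differed between st32 and st16 for the members below, by an edgeR interaction test adjusted over all genes. Each value is the log2 effect at st32 less that at st16, so a positive value is a smaller fall, or a rise, at st32. With suh-dbm + dnmcidas it was 2.85 for cep57l1.L (edgeR adjusted p = 0.00157), 1.63 for cep70.L (0.0468), 3.33 for cep76.L (0.0410), 2.86 for cep83.L (0.00472) and 3.25 for cep120.L (0.0343).

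With nicd the difference was 1.65 for cep57l1.L (edgeR adjusted p = 0.0423), 1.41 for cep70.L (0.0427), 3.50 for cep76.L (0.00915), 2.22 for cep83.L (0.0103), 2.20 for cep83.S (0.0146), 1.40 for cep95.L (0.0300), 1.79 for cep164.S (0.0331) and 2.62 for cep295.S (0.00179). The differences had the same sign in both experiments for all 13. Both treatments were set against the same uninjected libraries, so these are not separate observations. In those libraries cep76.L was at 57.7 and 49 CPM at st16 and at 3.66 and 5.33 CPM at st32.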

How the results depend on the processing

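The report makes 168 calls of a member in a comparison. All 168 kept their direction in every alternative run, and the call itself was kept by 168 with DESeq2, with the replicate block and with the header dataset as a term, by 166 with RLE size factors, by 153 without the filter on low counts and by 161 with L and S copies summed. The count of members called between nicd and suh-dbm + dnmcidas at st16 was 1, and was 0 without the filter, 4 with DESeq2 and 2 with the replicate block. At st25 it was 0, and 1 with the replicate block. DESeq2 called 13 members for uninjected st32 against st25 (8 by edgeR), 11 for the suh-dbm + dnmcidas effect between stages (5 by edgeR) and 14 for the nicd effect (8 by edgeR). The block changed no other call of a member counted above. The cause of these shifts was not tested.

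Leaving out a library gave these ranges of called members. suh-dbm + dnmcidas against uninjected gave 13 to 17 at st16, 6 to 9 at st25 and 2 to 4 at st32. nicd against uninjected gave 14 to 17, 8 to 10 and 3 to 4 at those stages. suh-dbm + dnmcidas against suh-dbm gave 13 to 18, 9 to 12 and 2 to 4. nicd against suh-dbm + dnmcidas gave 0 to 2 at st16, 0 to 1 at st25 and 0 at st32. The uninjected steps gave 13 to 18 for st16 against st10.5, 13 to 16 for st25 against st16 and 0 to 3 for st32 against st25, and the effects between stages gave 0 to 2 with suh-dbm + dnmcidas and 1 to 9 with nicd. The part of the smaller number of libraries in these counts was not tested. Of 724 refits of a called member, 495 kept the call. With 2 libraries a group, a small change can go undetected at st32, where 13 members with suh-dbm + dnmcidas had an unadjusted p under 0.05 and 4 were called.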
